A study of Mus musculus with 1203 samples.

Results

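The 10 immediate early genes Fos, Fosb, Jun, Junb, Jund, Egr1, Ier2, Atf3, Btg2 and Zfp36 were followed through single cells of the mouse colon. They were found by symbol, 1 row each, among 46517 genes. Their levels were read in the 856 cells with at least 1000 genes above 0 TPM (a length-normalised share of each cell's transcripts). Colonic cells from female mice of 11 weeks had been sorted 1 per well and sequenced by Smart-seq2, a full-length method for polyadenylated RNA. One genotype is labelled VillinCre;IPMKf/f: Cre recombinase under the Villin promoter, which acts in intestinal epithelium, with floxed alleles of Ipmk, the gene of inositol polyphosphate multikinase. The other is wild type. Wells are labelled tuft (live, EPCAM+ SIGLEC-F+) or epithelial, and the sources used here do not describe the gate of the epithelial wells.

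Cells of the tuft gate were divided by the tuft genes Trpm5, a cation channel of taste-like signalling, and Dclk1, a kinase. The cells followed most closely had at least 50 TPM of Trpm5 and at least 100 TPM of Dclk1. Called tuft cells from here on, they made up 60.97% of the 766 kept cells of the gate, and 39.8% of them are labelled conditional knockout. The remaining 39.03% are called the other cells, 38.1% of them labelled conditional knockout. Of the wells labelled epithelial, 71 did not meet the thresholds and serve as the third class, 50 labelled conditional knockout and 21 wild type. The conditional knockout label covers plate sets 2, 4, 5 and 7, and wild type covers plate sets 1, 3 and 6. No plate set holds both genotypes and no label names an animal, so genotype and plate set cannot be told apart, each genotype is 1 sample, and no p-values were computed. Errors are SDs between plate sets, which may be technical.

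The labels were checked against markers. Of 21 tuft markers that reached 10 TPM, Trpm5 and Dclk1 that chose the cells among them, 21 were higher in tuft cells than in the other cells of the gate. Summed tuft markers ranged from 4297 to 7041 TPM by plate set in tuft cells and from 252.4 to 891 TPM in the other cells. The other cells were a mixture: their colonocyte markers summed to between 2149 and 11452 TPM, goblet markers to between 26.1 and 3761 TPM and immune markers to between 0.28 and 2268 TPM. In tuft cells, colonocyte markers summed to between 43.4 and 832 TPM, goblet markers to at most 21.5 TPM, immune markers to at most 2.05 TPM, and all 5 enteroendocrine markers were at 0. The label did not go with less Ipmk: tuft cells averaged 5.25 ± 5.19 TPM of it under the conditional knockout label (SD, n = 4 plate sets) and 1.89 ± 0.29 TPM in wild type (n = 3). A gene-level TPM does not separate the floxed part from the rest of the transcript. The genotype is therefore given as labelled throughout. The 18S ribosomal entry Rn18s-rs5 held 78.6% of TPM in tuft cells, 74.3% in the other cells and 68.2% in wells labelled epithelial, which lowers all other values.

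Immediate early genes are transcribed within minutes of a stimulus without new protein synthesis. Fos and Fosb proteins pair with Jun, Junb or Jund to form the transcription factor AP-1. Egr1 is a zinc finger transcription factor, Atf3 a stress-induced basic leucine zipper factor and Ier2 a nuclear protein of the early response. Btg2 is an antiproliferative cofactor, and Zfp36 (tristetraprolin) binds AU-rich messenger RNAs and hastens their decay. Their promoters are known targets of serum response factor, which binds the CArG box, and of CREB-family factors, which bind TGACGTCA or its core TGACG. The family is known to respond to growth factors in gut epithelium and also to the handling of tissue.

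RefSeq's promoter table (GRCm38.p6, 250 bases before to 50 after each start site) held 8 of the 10 genes, all but Egr1 and Ier2. In the GENCODE M21 annotation of GRCm38 the protein-coding gene Fos lies at chr12:85473890-85477273 on the plus strand, and Jun at chr4:95049034-95052222, Atf3 at chr1:191170296-191218039 and Btg2 at chr1:134075170-134079120 lie on the minus strand. Some RefSeq windows are not at the start of the GENCODE gene. Those of Atf3 (chr1:191183284-191183583) and Zfp36 (chr7:28379179-28379478) lie inside the gene. That of Jund (chr8:70697489-70697788) ends before the gene's first base at 70698949. The bases before the start site are shown for Fos and Btg2, which hold TGACG or TGACGTCA and differed in level between the cell classes below. All are written 5′ to 3′ on the gene's strand, with TGACG and TGACGTCA in capitals.
Fos, chr12:85473640-85473889, plus strand: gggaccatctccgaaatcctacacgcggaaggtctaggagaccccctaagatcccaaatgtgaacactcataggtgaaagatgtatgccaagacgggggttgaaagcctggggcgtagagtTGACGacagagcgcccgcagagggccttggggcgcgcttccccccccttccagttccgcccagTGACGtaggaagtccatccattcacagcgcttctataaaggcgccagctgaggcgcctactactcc
Btg2, chr1:134079156-134079405, minus strand: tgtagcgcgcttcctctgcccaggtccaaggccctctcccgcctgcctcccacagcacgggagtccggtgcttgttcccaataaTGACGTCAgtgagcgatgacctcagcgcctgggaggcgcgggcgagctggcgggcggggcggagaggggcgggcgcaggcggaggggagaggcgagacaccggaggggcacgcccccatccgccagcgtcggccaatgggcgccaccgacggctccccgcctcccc

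The Fos window held TGACG at 2 places, the nearer 66 to 62 bases before the start site, with a TATAAA at 33 to 28 bases. The full TGACGTCA palindrome lay in the Btg2 window. A CArG box lay 58 to 49 bases before RefSeq's start site of Zfp36. On either strand of the 300-base windows, TGACG (which TGACGTCA contains) was present in 5 of the 8 genes (Fos, Fosb, Junb, Atf3 and Btg2) and in 20.8% of 32851 promoters. TGACGTCA was in 1 of 8 and in 1.79% of all, and the CArG box in 1 of 8 and in 1.63% of all. These matches are a description of letters, not of binding.

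Tuft cells had low levels of the immediate early genes beside the other cells of the same gate. For each gene the plate-set mean TPM was put on the log2(mean TPM + 1) scale and differenced within plate sets. The rule of size asked for 10 TPM in either class, a difference of at least 1.5-fold and the same sign in all 7 plate sets. By it 5 of the 10 were lower in tuft cells (Fos, Jun, Junb, Atf3 and Btg2) and 0 were higher. Of 2585 genes at 10 TPM, 17.7% were lower and 16.4% higher. Of the 10, 9 reached 10 TPM, all but Jund. The median log2 difference was -1.73 over the 10 genes and -1.74 over the 9 at 10 TPM, beside 0.03 over all genes at 10 TPM. Plate set 7 has 9 tuft cells, and without it 9 of the 10 genes were lower by the rule, where 19.7% of 2604 genes were lower and 18.8% higher.

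**Figure D1:**
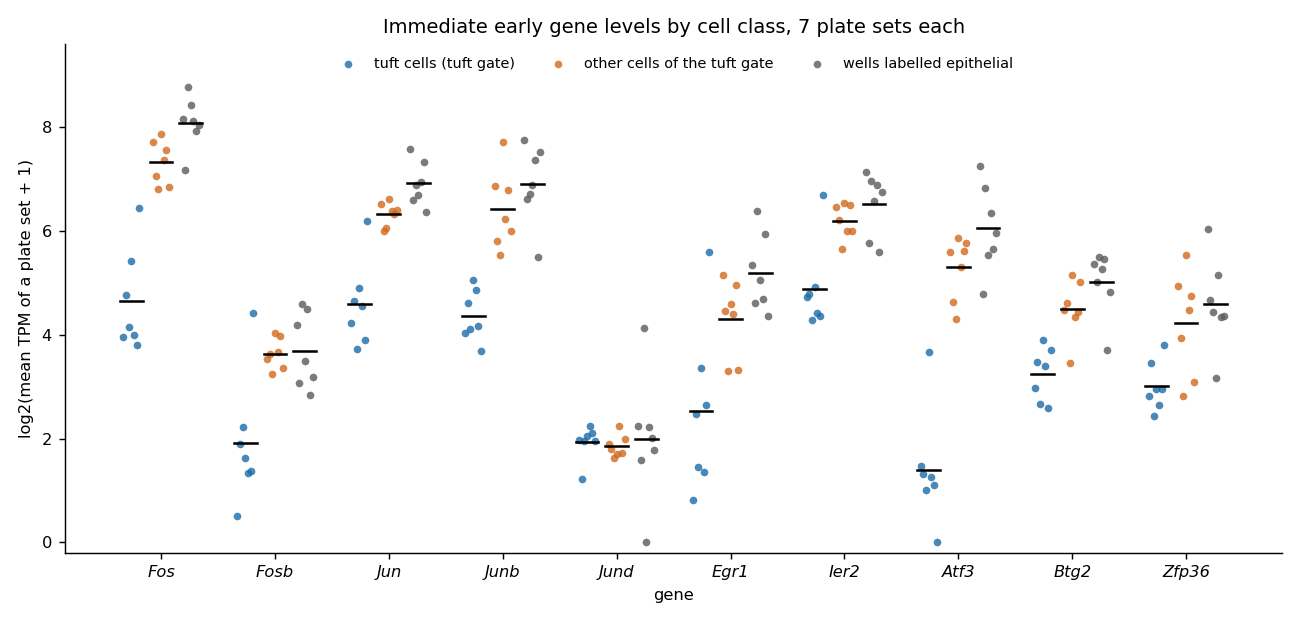
Mean TPM of each gene per plate set, as log2(mean TPM + 1), in tuft cells, other cells of the tuft gate and wells labelled epithelial; each point is 1 of 7 plate sets and the bar is their mean. The Atf3 points do not overlap between tuft cells (0 to 11.7 TPM) and the other cells (18.8 to 57.04 TPM), while the Jund points of both overlap.

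Fos, the founding Fos family member, had a lowest, median and highest plate-set mean of 12.97, 16.8 and 85.4 TPM in tuft cells, against 111.5, 164.2 and 233.7 TPM in the other cells. The ranges did not overlap. The mean was 30.4 ± 26.3 TPM in tuft cells and 164.6 ± 47.6 TPM in the other cells (SD, n = 7), a log2 difference of -2.67 ± 1.16. Fos was above 0 in 25.1% of tuft cells (exact binomial 95% interval 21.2% to 29.2%, counting error only) and in 86.6% of the other cells (82.2% to 90.3%). The median tuft cell had no Fos, whereas the median other cell had 102.15 TPM.

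Fosb, another Fos family gene, had plate-set means of 0.42, 2.10 and 20.4 TPM (lowest, median, highest) in tuft cells, against 8.46, 11.3 and 15.3 TPM in the other cells. It was lower in 6 of 7 plate sets, at a mean log2 difference of -1.72 ± 1.39. Plate set 7 was the exception, and Fosb did not meet the rule.

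Of the Jun family, Jun had plate-set means of 12.2, 22.3 and 72.4 TPM in tuft cells, against 62.6, 82.6 and 97.1 TPM in the other cells. Only plate set 7 reached into the range of the other cells. The log2 difference was -1.74 ± 0.79, negative in 7 of 7 plate sets. Junb had 11.9, 17.04 and 32.1 TPM in tuft cells, against 45.1, 74.4 and 208.2 TPM in the other cells, without overlap, at -2.06 ± 0.70. Jund, which is known to be expressed without a stimulus in many tissues, had 1.34, 2.91 and 3.72 TPM in tuft cells and 2.07, 2.48 and 3.74 TPM in the other cells. Jund stayed under 10 TPM in both classes and its log2 difference was 0.07 ± 0.34, positive in 4 of 7 plate sets.

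Because AP-1 is a dimer, cells with both families were counted. A Fos family gene and a Jun family gene were both above 0 in 28.7% of tuft cells and in 86.6% of the other cells. A Jun family gene, with or without a Fos family gene, was common in both classes, in 84.8% of tuft cells and 97.99% of the other cells. The Fos family was the rarer side, in 31.05% of tuft cells and 87.3% of the other cells.

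Atf3 had the largest fold of the 10. Its plate-set means were 0, 1.41 and 11.7 TPM in tuft cells, against 18.8, 47.5 and 57.04 TPM in the other cells, and the ranges did not overlap. The log2 difference was -3.89 ± 1.13. Atf3 was above 0 in 19 of the tuft cells (4.07%, 2.47% to 6.28%) and in 57.2% of the other cells (51.4% to 62.9%). In plate set 4, which gave the 11.7 TPM, 1 cell held 77.1% of the summed Atf3.

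Egr1 had plate-set means of 0.77, 4.53 and 47.3 TPM in tuft cells, against 8.91, 20.97 and 34.5 TPM in the other cells. Ier2 had 18.5, 25.4 and 102.5 TPM in tuft cells, against 49.2, 72.8 and 91.8 TPM in the other cells. Both were lower in 6 of 7 plate sets, with log2 differences of -1.78 ± 2.05 and -1.31 ± 0.92, and neither met the rule. In plate set 7 both were higher in tuft cells, and 1 cell there held all of the Egr1 (425.8 TPM) and 75.1% of the Ier2 (693 TPM).

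Btg2 had 5.01, 9.54 and 14.0 TPM in tuft cells, against 9.91, 21.3 and 34.3 TPM in the other cells. It was lower in all 7 plate sets, with the smallest SD of the 5 genes that met the rule (-1.25 ± 0.36). Zfp36 had 4.43, 6.75 and 13.02 TPM in tuft cells, against 6.11, 21.3 and 45.2 TPM in the other cells, with -1.21 ± 1.18 and the same sign in 6 of 7 plate sets, so the rule was not met.

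**Figure D2:**
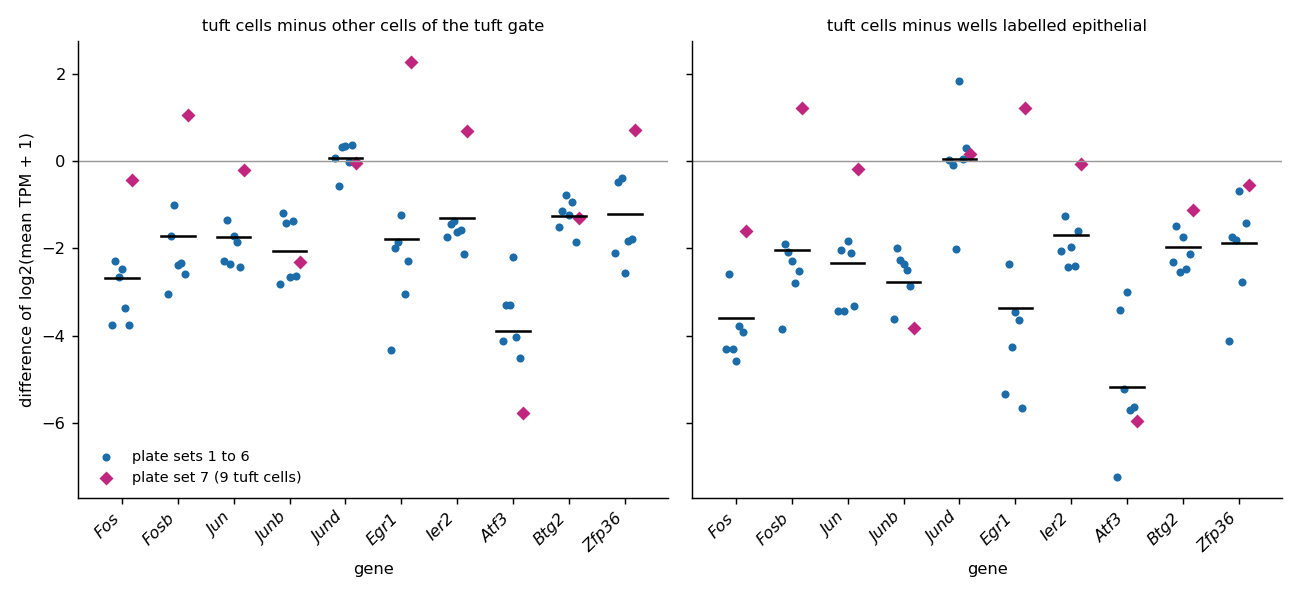
Differences of log2(mean TPM + 1) per plate set for each gene, tuft cells minus other cells of the tuft gate (left) and minus wells labelled epithelial on the first plate of each set (right); bars are means over 7 plate sets and diamonds mark plate set 7. On the left, Fos, Jun, Junb, Atf3 and Btg2 lie below 0 in all 7 plate sets, and the diamonds of Fosb, Egr1, Ier2 and Zfp36 lie above 0.

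The order of the genes also differed by class. In tuft cells the highest mean levels were those of Ier2 (34.6 ± 30.2 TPM), Fos (30.4 ± 26.3), Jun (27.4 ± 20.7) and Junb (20.6 ± 7.42), and these neighbours differed by less than their SDs. Atf3 was last at 2.65 ± 4.04 TPM, next to Jund at 2.88 ± 0.75. In the other cells Fos led, followed by Junb (95.9 ± 56.2 TPM), Jun (80.3 ± 12.5) and Ier2 (73.7 ± 16.3), with Atf3 next at 41.1 ± 14.8 and Jund last at 2.65 ± 0.57. By mean level Atf3 thus moved past Egr1, Btg2, Zfp36, Fosb and Jund between the classes.

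Cell by cell, a tuft cell had a median of 3 of the 10 genes above 0, against 7 in the other cells and 8 in wells labelled epithelial. Cells with 6 or more made up 18.2% of tuft cells (85 cells), 73.9% of the other cells and 80.3% of wells labelled epithelial (57 of 71). In plate sets 1 to 6 the share was 12.5% to 22.6% in tuft cells and 52.5% to 82.8% in the other cells. Plate set 7 had 4 of 9 tuft cells and 8 of 14 other cells. The median number of genes of any kind above 0 was 2669 in tuft cells, 2450 in the other cells and 3516 in wells labelled epithelial. Among cells with 2000 to 4000 genes above 0, which brings the classes closer in detection, 9 of the 10 genes were lower in tuft cells by the rule, where 18.4% of 2788 genes were lower and 17.7% higher. That window also drops the plate set 7 tuft cell that held all of the Egr1 there, which had 4132 genes above 0. Leaving out plate set 7 alone gave 9 as well, so this count does not separate detection from that cell.

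**Figure D3:**
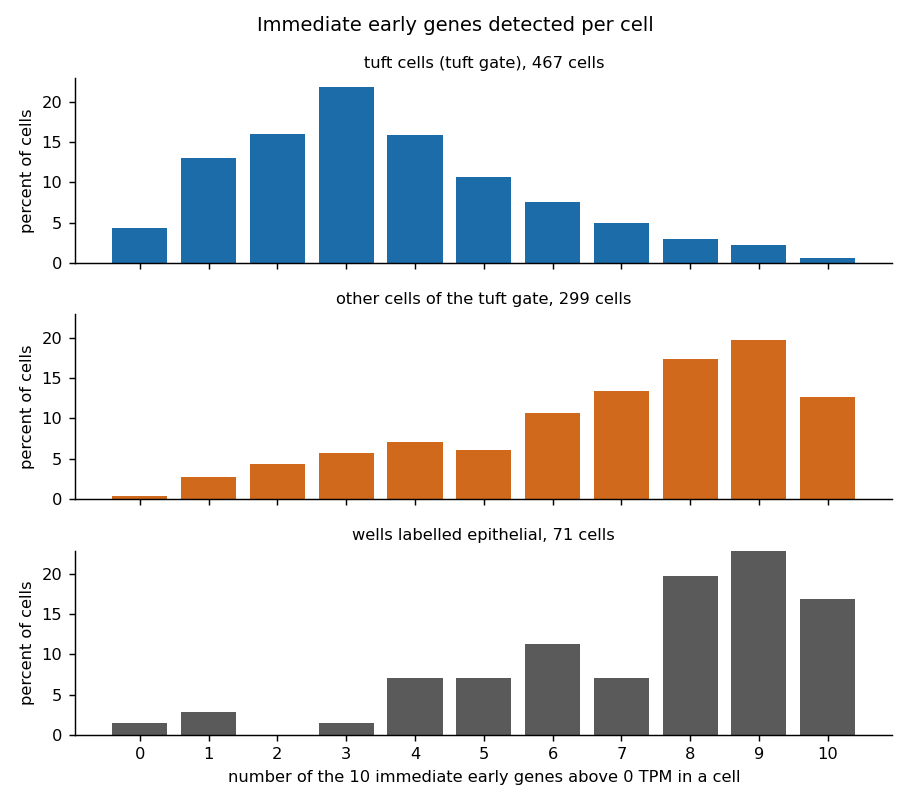
Percent of cells (vertical axis) by the number of the 10 immediate early genes above 0 TPM (horizontal axis), in tuft cells, other cells of the tuft gate and 71 wells labelled epithelial. Tuft cells peak at 3 genes (21.8% of cells), the other cells and the wells labelled epithelial at 9 (19.7% and 25.4%).

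Splitting the gate further, by a division chosen after the data were seen, gave a middle group. The score was each cell's mean log2(TPM + 1) over the 10 genes. It averaged 1.45 in tuft cells, 2.97 in cells with Trpm5 or Dclk1 above 0 but under a threshold (18.7% of the gate), and 4.20 in cells with neither gene (20.4%). Fos followed the same order, at 30.4 ± 26.3, 88.2 ± 37.5 and 227.3 ± 67.6 TPM, as did Atf3 at 2.65 ± 4.04, 16.1 ± 8.72 and 61.1 ± 26.9 TPM. Btg2 was at 9.01 ± 3.41, 9.86 ± 3.52 and 33.1 ± 11.0 TPM, so that tuft cells and the middle group differed by less than their SDs. The means of Zfp36 (7.47, 7.41 and 31.5 TPM) and Jund (2.88, 1.83 and 3.38 TPM) were not in this order. Close to the thresholds the mean of Fos followed no one order, by values given as a description. The 17 tuft cells with 50 to 75 TPM of Trpm5 averaged 67.9 TPM of Fos, against 85.3 TPM in 10 cells with 25 to 50 TPM and enough Dclk1. The 29 tuft cells with 100 to 150 TPM of Dclk1 averaged 103.5 TPM of Fos, against 45.6 TPM in 29 cells with 50 to 100 TPM and enough Trpm5. That 103.5 TPM includes 1 cell of plate set 4 with 1874 TPM of Fos and 126.5 TPM of Dclk1, so the second contrast leans on a single cell. The score was 2.53 against 2.48 at the Trpm5 threshold and 2.23 against 1.97 at the Dclk1 threshold, tuft cells first.

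**Figure D4:**
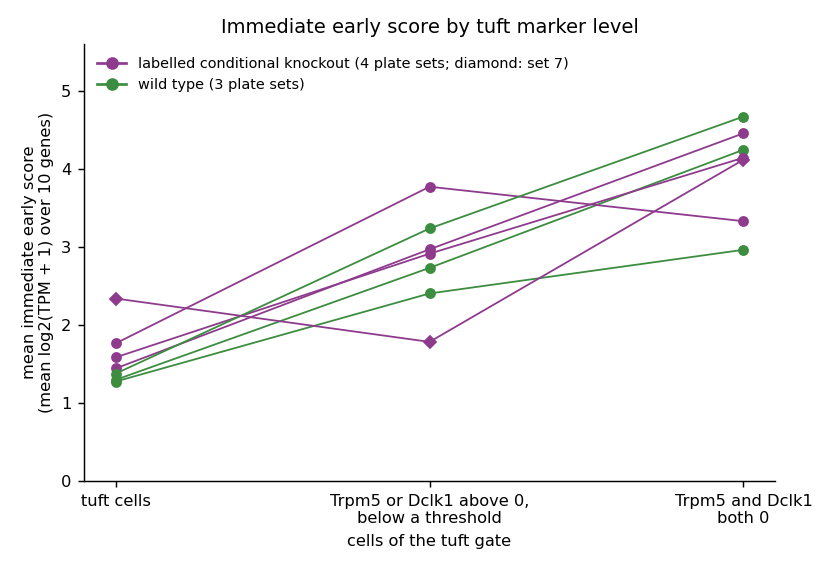
Mean immediate early score (mean log2(TPM + 1) over the 10 genes) of each plate set in tuft cells, in cells with Trpm5 or Dclk1 above 0 but below a threshold, and in cells with neither gene; lines join a plate set. In 6 of 7 plate sets the score is lowest in tuft cells, and plate set 7 has 2.34 in tuft cells, 1.79 in the middle group and 4.12 in cells with neither.

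Wells labelled epithelial shared the first plate of each set with tuft wells, and the comparison was made within those 7 plates. Here 7 of the 10 genes were lower in tuft cells (Fos, Jun, Junb, Ier2, Atf3, Btg2 and Zfp36) and 0 higher. Of 3249 genes, 20.2% were lower and 7.79% higher. Fos averaged 27.2 ± 25.95 TPM in tuft cells and 283.6 ± 90.3 TPM in wells labelled epithelial (log2 difference -3.59 ± 1.09). Atf3 averaged 1.29 ± 1.76 TPM in tuft cells and 75.1 ± 43.4 TPM in wells labelled epithelial (-5.17 ± 1.49). The log2 difference was -2.33 for Jun, -2.77 for Junb, -1.68 for Ier2, -1.97 for Btg2 and -1.87 for Zfp36. Egr1 (-3.36) and Fosb (-2.03) were negative in 6 of 7 plate sets and did not meet the rule, and Jund, under 10 TPM, was at 0.04. The median was -2.18 over the 10 genes and -2.33 over the 9 at 10 TPM, beside -0.60 over all genes at 10 TPM. Genes that every cell uses were also low in tuft cells here. Of 10 such genes at 10 TPM, 6 were lower by the rule and 0 higher, with a median of -1.34. Of 10 heat shock and ubiquitin genes at 10 TPM, 2 were lower and 0 higher, with a median of -1.19. The part of this wider difference in the values of the immediate early genes was not tested. The tuft cells of this comparison are mostly cells of the previous one, and the results are not independent.

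Lists of other genes were read in the same way. Of 14 further immediate early genes at 10 TPM, 6 were lower and 3 higher in tuft cells than in the other cells, with a median of -0.85. The serum- and glucocorticoid-induced kinase Sgk1 (3.38 ± 3.48 TPM in tuft cells and 52.4 ± 33.7 TPM in the other cells, -3.86) and the EGF receptor inhibitor Errfi1 (1.10 ± 0.80 TPM in tuft cells and 11.5 ± 5.91 TPM in the other cells, -2.53) were among the lower ones. The polo-like kinase Plk2 went the other way, at 17.98 ± 4.75 TPM in tuft cells and 2.64 ± 1.63 TPM in the other cells (2.50). Klf6, Rhob, Irf1 and Id1 were the other lower genes, and Gadd45g and Id2 the other higher ones. Of 9 heat shock and ubiquitin genes at 10 TPM, 1 was higher (Hsp90aa1, a cytosolic chaperone, at 74.5 ± 25.99 TPM in tuft cells and 22.4 ± 7.50 TPM in the other cells), with a median of -0.42. Among 10 genes that every cell uses, 4 were lower and the median was -0.67, with Gapdh, by which wells had been screened before sequencing, at 173.9 ± 49.5 TPM in tuft cells and 348.9 ± 104.5 TPM in the other cells. Of 7 measured kinases and factors upstream of these promoters, 1 met the rule: the kinase Map2k1, at 4.67 ± 2.98 TPM in tuft cells and 17.2 ± 6.18 TPM in the other cells (-1.76).

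Genotype within tuft cells gave 2 genes by the rule, which here asks that plate-set values of the labelled genotypes do not overlap. Jun and Btg2 were higher in cells labelled conditional knockout, and 0 of the 10 were lower. Of 2309 genes, 1.82% were higher and 2.47% lower. The median log2 difference was 0.81 over the 10 genes and 1.003 over the 6 at 10 TPM, beside -0.19 over all genes at 10 TPM. Removing tuft cells with 100 TPM or more of summed colonocyte markers, an alternative chosen after the data were seen, left 0 genes by the rule, where 1.48% of 1953 genes were higher. With 2000 to 4000 genes above 0 it was also 0, where 4.84% of 2354 genes were higher, and the median over the 10 genes was 0.28.

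Jun was at 24.2, 28.8, 22.3 and 72.4 TPM in plate sets 2, 4, 5 and 7 of the conditional knockout label, against 17.7, 12.2 and 13.9 TPM in plate sets 1, 3 and 6 of wild type. Its log2 difference was 1.13 ± 0.61, and 0.75 without plate set 7. Btg2 was at 10.2, 14.0, 9.54 and 12.1 TPM under the conditional knockout label, against 6.89, 5.37 and 5.01 TPM in wild type (0.88 ± 0.22). Both genes were separated in level by a narrow margin, the lowest plate set under the conditional knockout label against the highest of wild type being 22.3 against 17.7 TPM for Jun and 9.54 against 6.89 TPM for Btg2.

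Fos was at 26.3, 41.6, 15.0 and 85.4 TPM under the conditional knockout label, against 14.6, 16.8 and 12.97 TPM in wild type. The plate sets overlapped, through plate set 5, and the rule was not met at a log2 difference of 1.18 ± 0.81. With tuft cells of 100 TPM or more of colonocyte markers left out it was 0.18. Egr1 averaged 15.7 ± 21.3 TPM in cells labelled conditional knockout and 2.60 ± 2.38 TPM in wild type. Ier2 averaged 44.6 ± 38.7 TPM under the conditional knockout label and 21.2 ± 3.73 TPM in wild type, and Junb 23.9 ± 8.73 TPM under that label and 16.3 ± 0.81 TPM in wild type. All 3 overlapped. The means of Fosb, Atf3, Zfp36 and Jund were under 10 TPM in both genotypes.

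Single cells carried much of these means. In plate set 7, 1 of 9 tuft cells held 72.3% of the Jun, 49.6% of the Fos and 53.3% of the Fosb, and without it the Jun mean was 22.5 TPM. In plate set 4, 1 of 69 tuft cells held 65.3% of the Fos (1874 TPM), 45.6% of the Btg2 (440 TPM) and 77.1% of the Atf3 (623 TPM). That cell had 7473 TPM of summed colonocyte markers and 6050 genes above 0. Without the cell of highest score in each class and plate set, 1 of the 10 genes met the rule, a count given without the share of all genes. Across genotypes, 27 tuft cells had 8 or more of the 10 genes above 0 (13 labelled conditional knockout, 14 wild type), and 21 of them (77.8%) had 100 TPM or more of colonocyte markers, against 30.5% of the rest. Their median number of genes above 0 was 4360, against 2610 in the rest. The part of colonocyte RNA, of wells with more than 1 cell or of detection depth in the genotype difference was not tested.

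**Figure D5:**
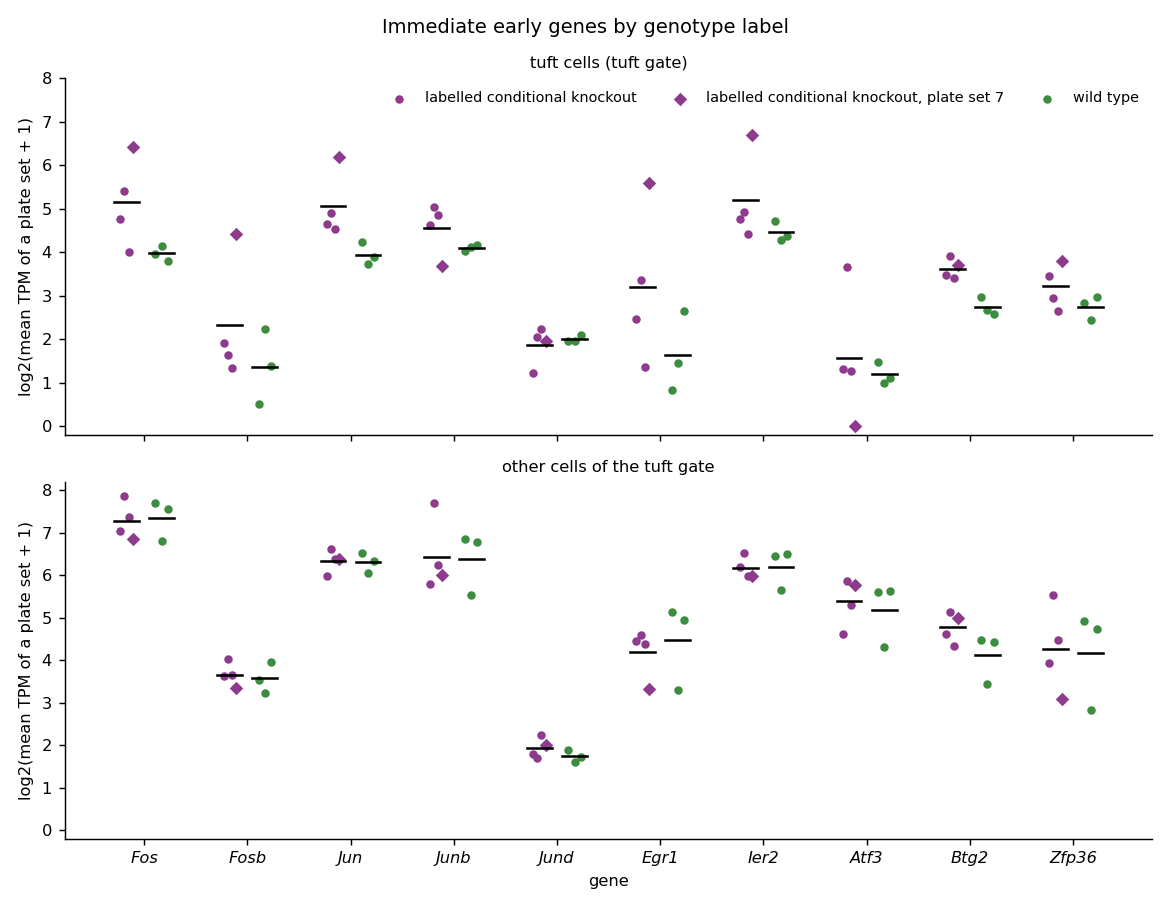
Mean TPM per plate set, as log2(mean TPM + 1), in plate sets labelled conditional knockout (4 points) and wild type (3 points), in tuft cells (top) and other cells of the tuft gate (bottom); bars are means and diamonds mark plate set 7. In the top panel Jun and Btg2 are the genes at 10 TPM whose points do not overlap, and in the bottom panel no gene's points are apart.

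In the same tuft cells, 3 of 9 further immediate early genes at 10 TPM were higher under the conditional knockout label and 0 lower: the phosphatase gene Dusp1 (16.4 ± 12.3 TPM under that label, 3.84 ± 0.58 TPM in wild type) and the inhibitors of differentiation Id3 (28.3 ± 3.77 TPM under that label, 12.5 ± 1.86 TPM in wild type) and Id1 (69.4 ± 12.4 TPM under that label, 32.7 ± 2.75 TPM in wild type). Of 8 heat shock and ubiquitin genes 0 met the rule, with a median of -0.24. Those of highest level were the chaperone Hsp90ab1, at 153.2 ± 32.6 TPM under that label and 180.9 ± 53.6 TPM in wild type, and Ubb, a ubiquitin gene, at 135.99 ± 29.3 TPM under that label and 137.2 ± 24.3 TPM in wild type. Of 9 genes that every cell uses, 2 were higher, B2m (107.5 ± 28.3 TPM under that label, 43.3 ± 4.02 TPM in wild type) and Sdha (32.4 ± 20.2 TPM under that label, 14.6 ± 2.39 TPM in wild type).

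The other cells of the tuft gate gave 0 of 10 genes in either direction, where 3.26% of 2328 genes were higher and 1.85% lower. The median was 0.06 over the 10 genes and 0.04 over the 9 at 10 TPM, beside -0.06 over all genes at 10 TPM. Fos was at 161.1 ± 52.6 TPM in cells labelled conditional knockout and 169.2 ± 51.1 TPM in wild type, and Jun at 81.3 ± 14.2 TPM under that label and 78.9 ± 12.6 TPM in wild type. Btg2, with the largest difference of the 10 here, was at 27.1 ± 6.92 TPM under that label and 17.3 ± 6.41 TPM in wild type (0.65 ± 0.47). The log2 difference was 0.08 for Fosb, 0.04 for Junb, 0.19 for Jund, -0.28 for Egr1, -0.02 for Ier2, 0.22 for Atf3 and 0.09 for Zfp36, and all 10 overlapped between the labels. The make-up of these cells moved with the label: 12 of 12 colonocyte markers at 10 TPM were on the higher side and 5 met the rule, and its part in these values was not tested. The step in Jun from the other cells to tuft cells was smaller in plate sets labelled conditional knockout, at -1.27 ± 0.75, than in wild type, at -2.36 ± 0.07, without overlap of plate sets. For the other 9 genes these steps overlapped. Over the 2585 genes at 10 TPM the difference was without overlap and positive, as for Jun, in 2.21% and negative in 3.09%.

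In wells labelled epithelial, 1 of 10 genes met the rule. Egr1 was lower, at 23.3, 32.04, 24.8 and 19.6 TPM in the plate sets labelled conditional knockout and 39.4, 82.4 and 59.999 TPM in wild type (-1.21 ± 0.40). Of 3485 genes, 2.21% were higher and 5.11% lower. The plate sets of the other 9 genes overlapped, at log2 differences of -0.35 for Fos, -0.31 for Fosb, -0.61 for Jun, 0.45 for Junb, -1.39 for Jund (under 10 TPM), -0.06 for Ier2, -0.92 for Atf3, 0.30 for Btg2 and -0.60 for Zfp36. Over the 9 genes at 10 TPM the median was -0.35, beside -0.31 over all genes at 10 TPM. Over all 10 it was -0.47, and 0.11 after rescaling without the most abundant genes, where 0 were lower. These wells number 5 to 19 per plate set. Goblet markers stood higher under the conditional knockout label, 7 of 7 at 10 TPM and 2 by the rule, and Rn18s-rs5 held 73.8% ± 8.36 of TPM under that label and 60.8% ± 3.38 in wild type. The part of either in the Egr1 difference was not tested.

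Within plate sets, Spearman correlations over cells described how the genes varied together. They share each cell's depth and total, and no test was made. In the other cells each gene was set against the mean score of the remaining 9, giving averages over plate sets of 0.77 for Fos, 0.75 for Atf3, 0.71 for Egr1, 0.65 for Fosb and 0.13 for Jund. In tuft cells the same values were 0.54 for Fos, 0.51 for Jun, 0.41 for Btg2, 0.28 for Atf3 and 0.14 for Jund. Jund was thus the gene with the weakest tie to the rest in both classes. The score itself went with the number of genes above 0 at 0.40 in tuft cells and 0.42 in the other cells.

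By the same measure, the gene most like the score among 1618 measured in the other cells was Dusp1 (0.60), and the 10 highest also held Bhlhe40 (0.50), Hbegf (0.50), Areg (0.50), Klf6 (0.49), Actb (0.48), Ifrd1 (0.47), Actg1 (0.45) and Tob1 (0.45). The median over those genes was 0.22. Genes entered only with a mean of at least 10 TPM and above 0 in at least 25% of the cells of the class. In tuft cells the list was led by Tpt1 (0.40), Eif6 (0.37), Rpl3 (0.36), Rpl4 (0.36), Anxa2 (0.36), Eef1a1 (0.36), Itm2b (0.35), Chchd2 (0.35), Cyc1 (0.35) and Ceacam1 (0.35), beside a median of 0.15 over 1587 genes. Of these 10, 0 were on the immediate early lists, whereas Dusp1, Klf6 and Tob1 of the first list were. Immediate early genes too low or too rare in tuft cells could not enter the tuft list, so this contrast does not compare the classes. Set against lists, the score went with the further immediate early genes at 0.54 in tuft cells and 0.70 in the other cells. The value for the genes that every cell uses was 0.40 in tuft cells and 0.48 in the other cells, for colonocyte markers 0.36 in tuft cells and 0.33 in the other cells, and for the heat shock list 0.33 in tuft cells and 0.37 in the other cells. For tuft markers without Trpm5 and Dclk1 it was 0.19 in tuft cells and -0.25 in the other cells.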

How the data were processed

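Single cells were sorted into plates, kept after a Gapdh qPCR screen per the labels' protocols, and sequenced by Smart-seq2. The deposited values are TPM, made by the authors with Bowtie2 2.4.2, RSEM 1.3.3 and build mm10 per the submitters' processing notes. Annotation release and strand handling were not stated. No reads per cell can be had from TPM, which leaves no count test. Of 1203 wells, 38 columns of values were not used (a nearly empty plate) and 6 had no value; 856 cells had at least 1000 genes above 0. Plate-set mean TPM was put on the log2(mean + 1) scale (Python 3.11.15, numpy 2.4.6, pandas 2.3.3, scipy 1.17.1), with a pseudocount of 1 TPM that understates changes of low genes. A rule of size took the place of a test, because no animal is labelled. It was tried on simulated cells drawn without differences between plate sets, so that trial does not cover such differences. No doublet caller was run. All 10 genes are named in every comparison; of each other list, up to 3 genes of largest difference that met the rule, and the 10 genes most like the score. Genes named beyond that were chosen after their values were seen. The 10 genes and all lists were chosen with earlier results of these data known. Alternatives changed the pseudocount, averaging, filters, thresholds, scaling and plates; 2 on colonocyte markers and the highest cell, and the split by markers at 0, were chosen after seeing the data. Some genes of the other lists are not reported here.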

Additional observations from a re-analysis of the deposited data

Results flagged for a closer look

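Of 50 groups of 4 to 7 plate sets searched, 8 had a plate set far from the others, 6 of them in plate set 7. The cutoff would flag about 1 in 20 groups of independent, normally distributed values. The groups here share cells, so that rate is no yardstick for the 8. In the genotype comparisons only the plate sets labelled conditional knockout were searched. Plate set 7 has 9 tuft cells. Its Fosb averaged 20.4 TPM in tuft cells, Jun 72.4 TPM, Egr1 47.3 TPM and Ier2 102.5 TPM, each far above the other plate sets labelled conditional knockout. Without the cell of highest sum, these means were 10.7 TPM for Fosb, 22.5 TPM for Jun, 0 TPM for Egr1 and 28.8 TPM for Ier2. In the same plate set the log2 difference of tuft cells from the other cells was 0.70 for Ier2, and that from wells labelled epithelial was 1.23 for Fosb, both opposite in sign to the other plate sets. Plate set 4 stood apart for Atf3 in tuft cells, at 11.7 TPM, and at 2.72 TPM without 1 cell, and for Junb in the other cells, at 208.2 TPM.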

How the results depend on the processing

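Of the medians and counts that answer a comparison, 22 moved by more than the replicate spread or 1.5 times the count. The median of genotype in the other cells, 0.06, kept its sign in 14 of 19 settings (-0.26 to 0.43), that in wells labelled epithelial in 16 of 17, and the other 3 medians in every setting run. For tuft cells against the other cells, the number of lower genes was 8 with both markers merely above 0, 9 among cells with 2000 to 4000 genes above 0, and 5 to 9 leaving out 1 plate set, 9 without plate set 7. The sign held in 19 of 19 settings for every gene but Jund (14 of 19). Against wells labelled epithelial it was 7 to 9 leaving out 1 plate set. For genotype in tuft cells, the median was 0.28 among cells with 2000 to 4000 genes. The number of higher genes was 1 with a pseudocount of 10 TPM, 1 on first plates, 0 with 2000 to 4000 genes, 0 with cells under 100 TPM of colonocyte markers, 1 without the highest cell, and 2 to 4 leaving out 1 plate set, 4 without plate set 5. In the other cells it was 1 after rescaling, 1 with 2000 to 4000 genes and 0 to 1 leaving out 1 plate set, 1 without plate set 5; the number lower was 0 to 1, 1 without plate set 3. In wells labelled epithelial, rescaling gave a median of 0.11, 1 gene higher and 0 lower; the number lower was 0 with the mean of logs, 0 without the highest cell, and 1 to 3 leaving out 1 plate set, 3 without plate set 6. The cause was not tested. Most of these counts stand without the share of all genes under the same setting, and show only how the counts moved. No paired analysis was possible because no plate set holds both genotypes and no test was made. Reads per cell are unknown, so a value of 0 may be a gene missed.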

Other observations

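Among wells labelled epithelial, 19 met the tuft thresholds, 1 labelled conditional knockout and 18 wild type. Fos was above 0 in 6 of these 19 (31.6%) and Atf3 in 1 of 19, beside 25.1% and 4.07% of tuft cells from the tuft gate and 92.96% and 67.6% of the 71 other wells labelled epithelial. Jun was above 0 in 14 of the 19 and Egr1 in 5.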
